A study of Mus musculus with 6 samples.

Results

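The Dlx genes are the mouse homologues of Drosophila Distal-less, a family of homeobox genes, and this account covers the 6 protein-coding Dlx genes and the antisense RNA gene Dlx6os1. They were picked by gene symbol, and each of the 7 symbols matched a single row among the 37991 genes counted. The family was singled out because several of its members stood far higher in male than in female libraries. The differences between the sexes given for the members below are therefore descriptions of the values that chose them and carry no test.

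The tissue was Müllerian duct mesenchyme. The duct it surrounds gives rise to oviduct, uterus and upper vagina in females, and in males it regresses under anti-Müllerian hormone (AMH). There were 3 male and 3 female libraries, all of genotype Amhr2Cre/+, R26R YFP/+ on a mixed C57BL/6J x 129/SvEv background at embryonic day 14.5. Every library thus carried the same Cre allele at the AMH receptor locus and the same YFP reporter. No library came from Cre-negative embryos, and the sample titles name no treatment. YFP+ cells, those with Amhr2-Cre activity and their descendants, were collected by sorting, and each library pooled cells of 2 to 7 embryos, so that embryos within a pool cannot be told apart. The study concerns the transcription factor osterix (Sp7) as a gene acting below AMH, and its design gives a single comparison, male to female at this age. Libraries held 22511872 to 24749859 counts in genes. Replicate 1 of each sex stood apart: of its counts assigned to genes, shared between genes or outside genes, 18.2% in male and 17.5% in female lay outside genes, against 5.45% and 5.50% in male replicates 2 and 3 and 3.53% and 8.65% in female replicates 2 and 3.

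DLX proteins bind DNA through a homeodomain that prefers sites with a TAATT core. Mouse Dlx genes lie in linked pairs whose members are transcribed towards each other and share enhancers in the DNA between them. Each pair holds a member of the Dlx1, Dlx4 and Dlx6 branch and a member of the Dlx2, Dlx3 and Dlx5 branch of the family. In mice, Dlx5 and Dlx6 give the lower jaw its identity and promote bone formation, Dlx3 acts in placenta, epidermis, tooth and bone, and Dlx1 and Dlx2 act in forebrain interneurons. In GENCODE M21 (GRCm38), Dlx2 (ENSMUSG00000023391) and Dlx1 (ENSMUSG00000041911) lie on chromosome 2, and Dlx3 (ENSMUSG00000001510) and Dlx4 (ENSMUSG00000020871) on chromosome 11. Dlx5 (ENSMUSG00000029755), Dlx6 (ENSMUSG00000029754) and Dlx6os1 (ENSMUSG00000090063) lie on chromosome 6. BMP and endothelin signals switch on Dlx genes in the branchial arches. Dlx6os1, also known as Evf2, is a long non-coding RNA of the Dlx5 and Dlx6 locus that recruits DLX proteins to enhancers in the mouse forebrain.

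The members are related in sequence, so the part of the homeobox that encodes the DNA-recognition helix is shown for the 6 protein-coding genes. It covers bases 124 to 174 of the 180-base homeobox in GENCODE M21 transcripts, and capitals mark bases that differ from Dlx5.
Dlx5: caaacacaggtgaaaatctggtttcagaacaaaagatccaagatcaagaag
Dlx2: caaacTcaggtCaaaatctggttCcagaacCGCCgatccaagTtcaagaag
Dlx3: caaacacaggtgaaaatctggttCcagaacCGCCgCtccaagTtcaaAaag
Dlx6: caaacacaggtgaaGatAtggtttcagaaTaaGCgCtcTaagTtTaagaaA
Dlx4: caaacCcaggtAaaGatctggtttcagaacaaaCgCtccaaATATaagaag
Dlx1: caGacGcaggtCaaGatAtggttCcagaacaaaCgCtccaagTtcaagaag
In these 51 bases the other members differed from Dlx5 at 8 to 10 positions. Over the whole homeobox, identity lay between 66.1% and 81.7% among the 15 pairings of the 6 genes, with Dlx2 and Dlx3 the most alike and Dlx3 and Dlx6 the least. Linked neighbours shared 71.7% to 73.9% of homeobox bases. Compared over whole annotated transcripts, the longest exact run that sequences of any 2 of these 6 genes shared was 36 bases, between Dlx1 and Dlx6, which is shorter than the 76-base reads.

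RefSeq promoters (GRCm38.p6, 250 bases before to 50 after a start) were matched by symbol for 3 of the 7 members, Dlx1, Dlx2 and Dlx6os1. There were no entries for Dlx3, Dlx4, Dlx5 and Dlx6. The promoters of Dlx2 and of a start of Dlx6os1 are printed because both genes were abundant in males and their promoters differ in make-up. Capitals mark TAATT on either strand.
Dlx2, chr2:71546705-71547004, minus strand: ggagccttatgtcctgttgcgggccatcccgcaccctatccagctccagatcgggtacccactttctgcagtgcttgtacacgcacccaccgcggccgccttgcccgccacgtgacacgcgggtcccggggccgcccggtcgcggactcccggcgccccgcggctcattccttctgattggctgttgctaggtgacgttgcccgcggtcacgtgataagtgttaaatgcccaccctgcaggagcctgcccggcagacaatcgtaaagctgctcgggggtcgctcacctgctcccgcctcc
Dlx6os1, chr6:6869484-6869783, minus strand: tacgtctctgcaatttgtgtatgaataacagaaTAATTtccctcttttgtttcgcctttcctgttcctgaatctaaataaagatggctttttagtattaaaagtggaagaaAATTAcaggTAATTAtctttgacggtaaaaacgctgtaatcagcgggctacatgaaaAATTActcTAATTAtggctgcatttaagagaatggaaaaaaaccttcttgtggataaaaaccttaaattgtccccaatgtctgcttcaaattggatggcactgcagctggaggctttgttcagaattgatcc
The Dlx2 promoter was 66.3% G and C with 29 CpG dinucleotides, and it held CACGTG at 2 positions, a word found in 7.15% of the 32851 promoters in the table. It held no TAATT, and neither did the Dlx1 promoter, which was 69.3% G and C with 27 CpG. The Dlx6os1 promoter was 35.7% G and C with 5 CpG, against a median of 52.7% and 7 over all promoters. It held 7 matches to TAATT counted on both strands, where a TAATTA counts once on each strand, and 0.14% of promoters held at least that many. The promoter at another annotated start of Dlx6os1 held 4 matches, a number reached by 1.65% of promoters. A match describes letters in this window and is not a bound site.

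Dlx5, scaled to exon length, was the most abundant member in every library. It held 1114, 1131 and 1988 counts in male replicates 1 to 3, against 8, 10 and 16 counts in female replicates 1 to 3. Scaled to library size as CPM, with library sizes adjusted by the TMM method, this was 42.6, 55.9 and 83.8 CPM in the male libraries and 0.294, 0.492 and 0.64 CPM in the female libraries. All male libraries lay far above all female ones, and the log2 fold change, male over female, was 6.99 (SE 0.54). In bulk libraries like these, fewer cells of a type and less RNA per cell cannot be told apart.

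Dlx6, the linked partner of Dlx5, held 501, 115 and 346 counts in male replicates 1 to 3, against 3, 2 and 1 in female replicates 1 to 3. The groups did not overlap, and male replicate 2 stood well below the other male libraries. The log2 fold change was 7.22 (SE 0.73). The count ratio was 165.9 with an exact 95% interval of 76.0 to 453.2, which, like the other intervals here, covers counting error only.

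Dlx6os1 held 380, 67 and 134 counts in male replicates 1 to 3, against 0, 0 and 1 in female replicates 1 to 3. Its log2 fold change was 8.69 (SE 1.1), a value that rests on 1 female count. The count ratio was 601.2 (95% interval 107.5 to 23788). In GENCODE M21, Dlx6 lies within the span of Dlx6os1 on the opposite strand and no exon base is shared between them. The library kit does not mark strand, so a read from unspliced Dlx6os1 RNA over a Dlx6 exon cannot be told apart from a Dlx6 read.

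Dlx3 held 161, 156 and 218 counts in male replicates 1 to 3, against 8, 4 and 8 in female replicates 1 to 3. This was 7.69 ± 1.51 CPM in male and 0.27 ± 0.065 CPM in female libraries (SD, n = 3 each), with a log2 fold change of 4.79 (SE 0.44). Its fold change was the smallest of the tested members. Its partner Dlx4, a member known from placenta, stayed low, with 11, 9 and 17 male counts against 3, 1 and 3 female counts. Dlx4 did not pass the filter on low counts, and its count ratio was 5.47 (95% interval 2.41 to 14.5).

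Dlx2 held 119, 119 and 190 counts in male replicates 1 to 3, against 2, 0 and 2 in female replicates 1 to 3. Its log2 fold change was 6.70 (SE 0.74) and its count ratio 110.7 (95% interval 42.9 to 408.2). Dlx1, its linked partner, was nearly silent: 3 counts in male replicate 1 and 0 in each of the other 5 libraries. No fold is given for Dlx1, since both sexes were at or under 3 counts over the group. A count of 0 over 3 libraries allows up to 3 counts, so Dlx1 transcription below that level was not detectable at this depth.

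**Figure D1:**
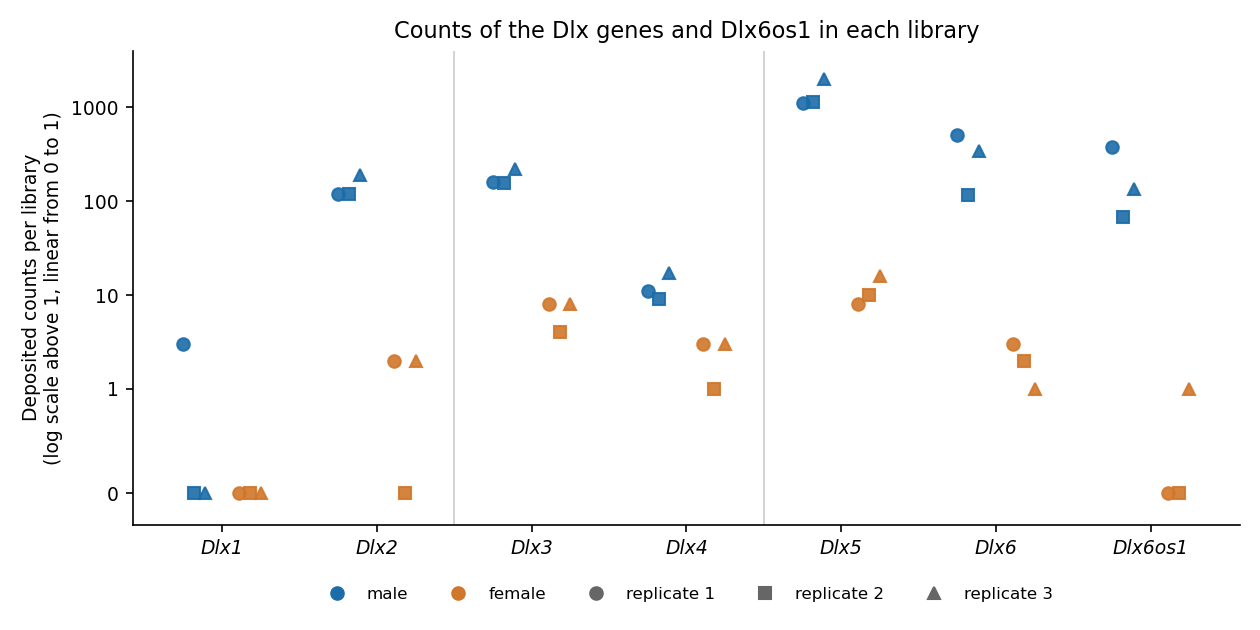
Deposited counts of each member (vertical axis, log scale above 1) in every library, male in blue left of female in orange, with the marker shape giving the replicate number and grey lines separating the linked pairs. Dlx5 stands highest at 1114 to 1988 male counts, Dlx1 has counts in male replicate 1 alone, and all male libraries lie above all female libraries for the other 6 members.

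In 6 of the 7 members every male library was above every female library, which held for 6.47% of the 15227 genes tested. Of the 7 members, 5 passed the filter on low counts, and Dlx4 and Dlx1 did not. All 5 were called higher in male by the edgeR fit at an adjusted p threshold of 0.05, against 0.841% of all genes called higher and 1.23% called in either direction. Nothing is read from these counts, because the members were chosen with this contrast known. Without male replicate 1, 2 or 3 the fit called 5, 1 and 0 members, and without female replicate 1, 2 or 3 it called 1, 0 and 0. Without replicate 1 of both sexes it called 5. Over all genes the fit called 173, 7 and 0 without male replicate 1, 2 or 3. It called 14, 5 and 0 genes in all without female replicate 1, 2 or 3, and 354 without replicate 1 of both sexes. Over the alternatives the log2 fold changes stayed between 4.63 and 4.98 for Dlx3, 6.24 and 7.14 for Dlx2, 6.70 and 7.27 for Dlx5, 6.85 and 7.58 for Dlx6, and 7.35 and 10.5 for Dlx6os1.

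The 3 linked pairs were compared by CPM per kb of exon, since levels of different genes can be set side by side only per length. In each pair the member of the Dlx2, Dlx3 and Dlx5 branch was the higher one in all 3 male libraries. Dlx5 averaged 26.9 ± 9.28 CPM per kb in male and 0.21 ± 0.0768 CPM per kb in female libraries (SD, n = 3 each). Dlx6 averaged 5.53 ± 2.89 CPM per kb in male and 0.0349 ± 0.0158 CPM per kb in female libraries. Dlx3 averaged 2.95 ± 0.581 CPM per kb in male and 0.104 ± 0.0249 CPM per kb in female libraries. Its partner Dlx4 averaged 0.161 ± 0.0502 CPM per kb in male and 0.0285 ± 0.0117 CPM per kb in female libraries. Dlx2 averaged 2.15 ± 0.61 CPM per kb in male and 0.0179 ± 0.0156 CPM per kb in female libraries. Dlx6os1 averaged 1.51 ± 1.15 CPM per kb in male libraries.

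In male libraries the order per kb began with Dlx5 and ended with Dlx4 and Dlx1 in all 3. Dlx6, Dlx3, Dlx2 and Dlx6os1 changed places between male libraries in the middle of the order, and their values overlapped between neighbours. In male replicate 1 they ran Dlx6, Dlx6os1, Dlx3, Dlx2, in male replicate 2 they ran Dlx3, Dlx6, Dlx2, Dlx6os1, and in male replicate 3 they ran Dlx6, Dlx3, Dlx2, Dlx6os1. In the female libraries Dlx5 came first and Dlx3 next, at counts too low to order the rest. These orders were the same in every library with the longest transcript in place of the exon union, and with plain CPM in place of TMM scaling.

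**Figure D2:**
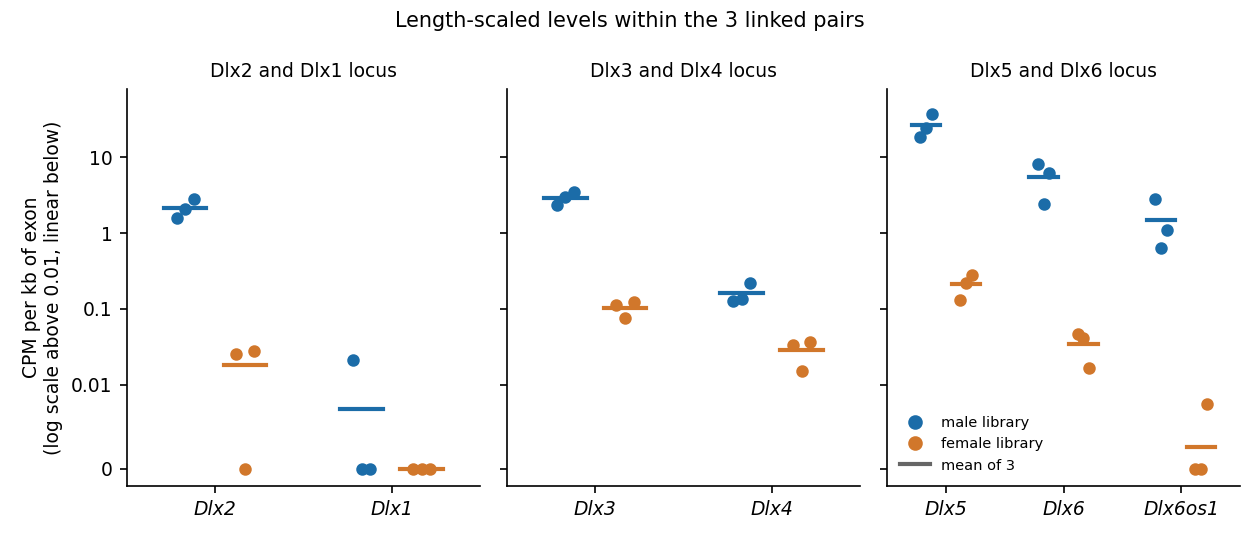
Level of each member in CPM per kb of exon (vertical axis, log scale above 0.01) for the 3 linked loci, male libraries in blue left of female libraries in orange, each point 1 library and each bar the mean of 3. In male libraries Dlx5 averages 26.9, Dlx3 2.95 and Dlx2 2.15 CPM per kb, each above its linked partner.

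Shares of counts within a pair, which are not scaled to length, describe each pair on its own and do not rank the loci. Over the male libraries Dlx1 made up 0.696% of the counts of its pair (exact 95% binomial interval 0.144% to 2.02%), with 3 counts against 428 of Dlx2. Dlx4 made up 6.47% of the counts of its pair (4.60% to 8.81%), and Dlx6 made up 18.5% of its own (17.5% to 19.6%), a pooled value that covers male libraries far apart. In the female libraries the shares rest on few counts. There, Dlx6 made up 15% (5.71% to 29.8%), 6 counts against 34 of Dlx5. Dlx4 made up 25.9% (11.1% to 46.3%), 7 counts against 20 of Dlx3, an interval that lies above that of the male libraries.

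The share of Dlx6 was not the same in the male libraries. Dlx6 made up 31.0% of the counts of its pair in male replicate 1 (28.8% to 33.3%), 9.23% in male replicate 2 (7.68% to 10.97%) and 14.8% in male replicate 3 (13.4% to 16.3%). None of these 3 counting intervals overlapped. Per kb, Dlx5 exceeded Dlx6 by 2.33 times in male replicate 1, 10.3 times in replicate 2 and 6.03 times in replicate 3.

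The proportions among Dlx2, Dlx3, Dlx4 and Dlx5 varied less. Dlx2 made up 42.5%, 43.3% and 46.6% of the summed counts of Dlx2 and Dlx3 in male replicates 1 to 3, with intervals that all overlapped. Dlx2 made up 9.65%, 9.52% and 8.72% of the summed counts of Dlx2 and Dlx5, again with overlapping intervals. Dlx3 made up 12.6%, 12.1% and 9.88% of the summed counts of Dlx3 and Dlx5. Dlx4 made up 6.40%, 5.45% and 7.23% of its pair. Dlx2, Dlx3, Dlx4 and Dlx5 thus stood in similar proportion in each male library, on chromosomes 2, 11 and 6.

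The members fell into separate patterns over the male replicates. Dlx5 in male replicate 1 was 0.61 times the mean of male replicates 2 and 3, Dlx2 was 0.655 times, Dlx3 was 0.729 times and Dlx4 was 0.725 times. Dlx6 was 1.89 times and Dlx6os1 3.25 times the mean of the other male libraries in replicate 1, against a median of 1.01 over 15043 genes. The antisense gene Dlx1as, which overlaps Dlx1, was also highest in replicate 1, at 4.90 times in male replicate 1 and 5.56 times in female replicate 1, where Dlx6os1 had no count. These are the libraries with the largest share of counts outside genes, 18.2% in male and 17.5% in female replicate 1. Its part in these differences was not tested.

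**Figure D3:**
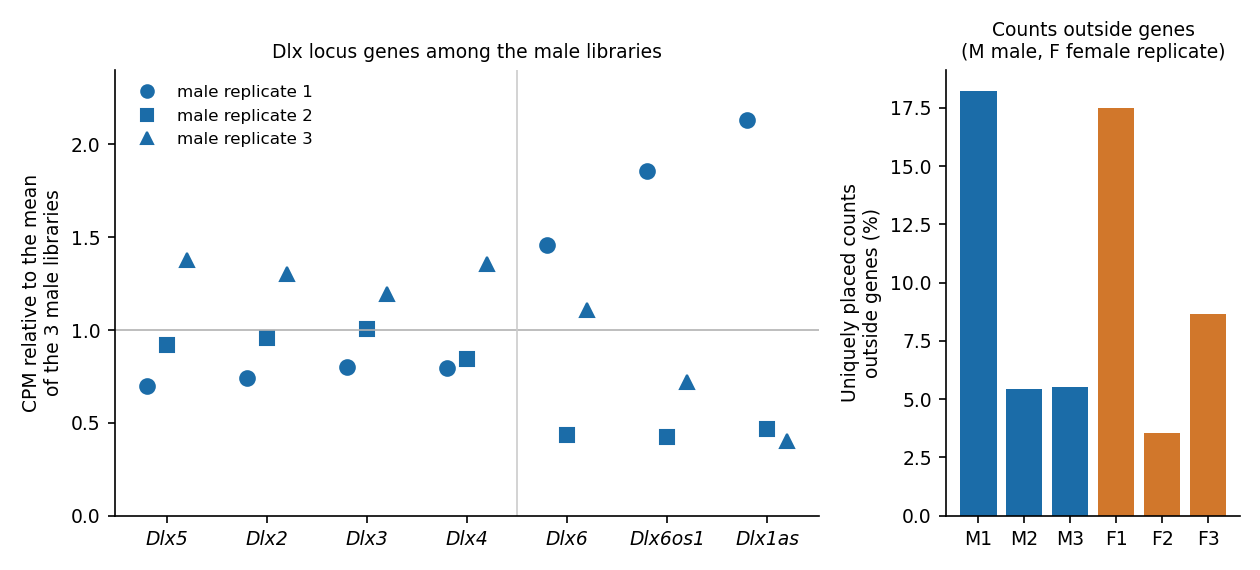
Left, CPM of each Dlx locus gene in the 3 male libraries relative to their mean (vertical axis), with a grey line at 1; right, the percentage of uniquely placed counts outside genes in each library. Dlx5, Dlx2, Dlx3 and Dlx4 are lowest in male replicate 1, whereas Dlx6, Dlx6os1 and Dlx1as are highest there, the library with 18.2% of counts outside genes.

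The other antisense genes of the Dlx loci overlapped between the sexes. Dlx1as held 88, 15 and 15 counts in male replicates 1 to 3, against 68, 2 and 20 in female replicates 1 to 3. The sexes overlapped, and with a log2 fold change of 0.47 (SE 1.09) it did not pass the threshold. GENCODE M21 places Dlx1 within the span of Dlx1as, and 20.6% of the exon bases of Dlx1as are shared with Dlx1, where unstranded reads cannot be assigned. Dlx4os held 4, 3 and 3 male counts and 3, 2 and 4 female counts.

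Genes that flank the Dlx pairs showed whether the neighbourhood moved as well, and their position was not used to choose the members. Of the 30 nearest protein-coding genes, 5 on each side of each pair, 27 were tested. None rose, 1 fell and 26 did not pass, against 0.841% of all genes called higher and 0.387% called lower. The gene that fell passed the filter on low counts only through the female libraries, where it is high, so nothing is read from that call. The median log2 fold change of the flanking genes was -0.03, and that of all genes tested was -0.01. By locus the median was -0.40 at Dlx1 and Dlx2, -0.03 at Dlx3 and Dlx4 and 0.48 at Dlx5 and Dlx6. At the Dlx5 and Dlx6 locus, 3 of 9 tested genes, Slc25a13, Dync1i1 and Pdk4, had every male library above every female one, against 6.47% of all genes, and none of the 3 passed the threshold. No flanking gene was called higher by the main edgeR fit, which holds no replicate term. In that fit 5 of the 27 had an unadjusted p under 0.05 in either direction, as did 1398 of the 15227 genes tested. With a replicate block, edgeR called 5 of the 27 higher and 6 lower, against 1997 higher and 2167 lower of the 15227. DESeq2 called 2 higher and 1 lower.

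Col28a1, a collagen gene beyond Dlx5 and the fifth on that side, was the one that fell. It held 8 male counts against 99 female counts and passed the filter on low counts only through the female libraries. It stood at 0.115, 0.148 and 0.0843 CPM in male libraries and 1.80, 1.08 and 1.12 CPM in female libraries, a difference of -3.48 log2 units (SE 0.50, edgeR adjusted p = 0.0314). The call was lost without any single library in turn (adjusted p 0.0738 to 0.262) and without replicate 1 of both sexes (0.0506). By the Dlx1 and Dlx2 pair the gene with the smallest p was Cybrd1, an iron reductase gene, at 1.02 (SE 0.30, edgeR adjusted p = 0.233). Among the alternatives Cybrd1 passed only in the edgeR fit with a replicate block (adjusted p = 6.59e-06). By the Dlx3 and Dlx4 pair no flanking gene had libraries that separated by sex, and all log2 fold changes lay between -0.32 and 0.31. The gene with the smallest p there was Fam117a, at -0.32 (SE 0.45), and it did not pass. The immediate neighbours of Dlx6os1 and Dlx5 were Sem1, at 0.48 (SE 0.47), and Sdhaf3, at -0.03 (SE 0.40), and neither passed.

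Slc25a13, Dync1i1 and Pdk4, all on the Dlx6os1 side, are named after their values were seen. Dync1i1 encodes a dynein chain, and exons of this gene act as enhancers of Dlx5 and Dlx6 in the mouse limb. It stood at 3.63, 6.23 and 6.11 CPM in male libraries against 0.735, 1.77 and 0.68 CPM in female libraries. Every male library was above every female one, but the log2 fold change of 2.33 (SE 0.53) did not pass (edgeR adjusted p = 0.12). Pdk4, a kinase gene of glucose metabolism, had 1.54 (SE 0.34, edgeR adjusted p = 0.107). Dync1i1 and Pdk4 thus had log2 differences well below the 6.99 of Dlx5.

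**Figure D4:**
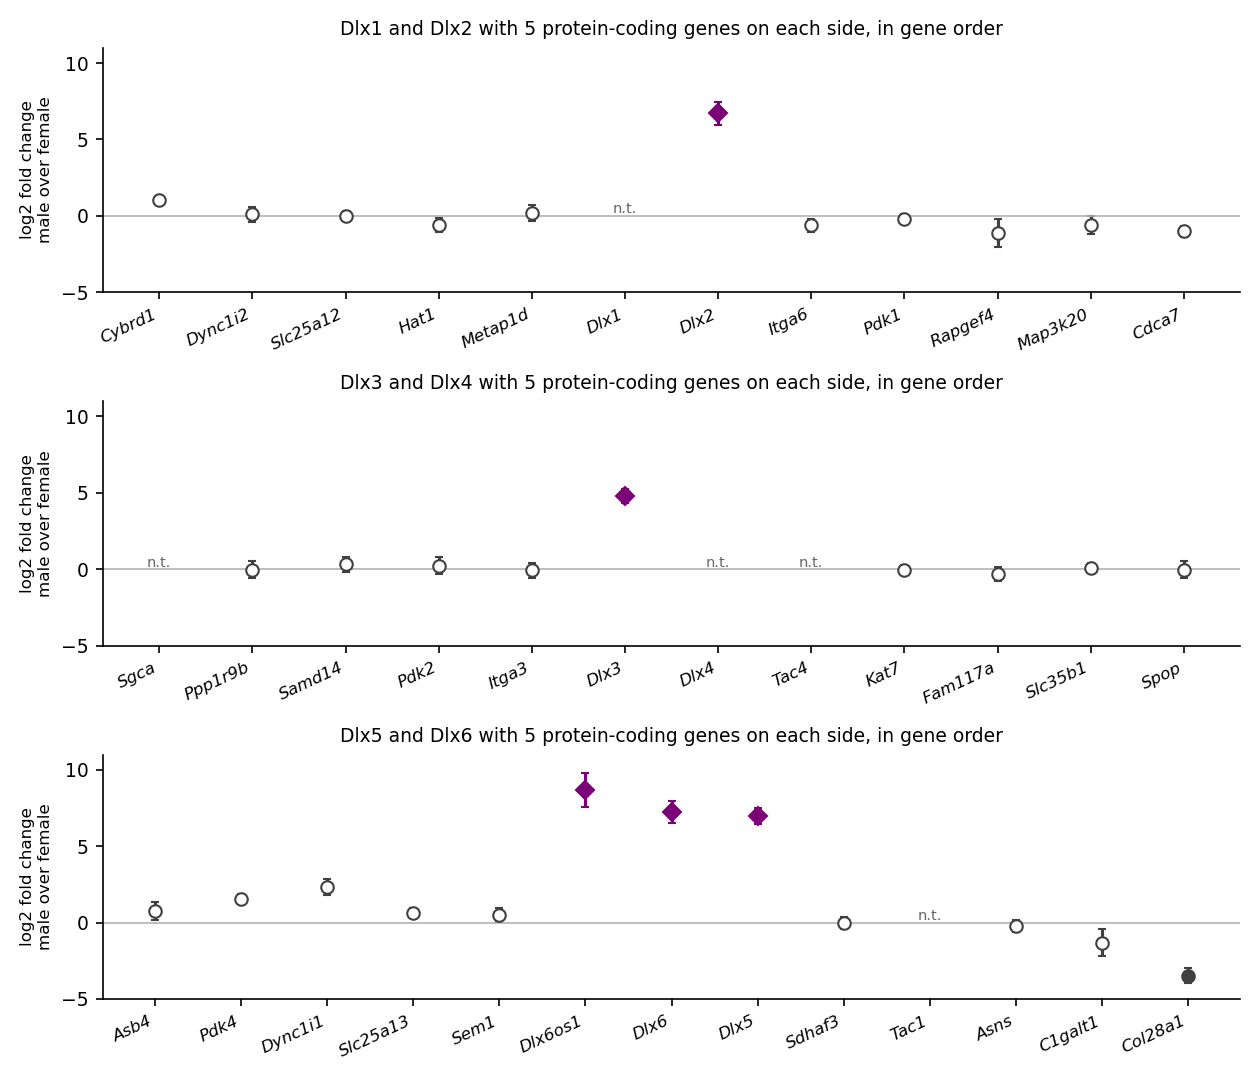
Log2 fold change, male over female, with its SE (vertical axis) for the genes of each Dlx locus in gene order. Purple diamonds are the members, circles the flanking genes, filled where called by the main edgeR fit, and n.t. marks genes too low to test. The tested members lie between 4.79 and 8.69, whereas the flanking genes lie between -3.48 and 2.33 and Col28a1 alone is called.

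Among genes of the signals known to act on Dlx genes, Smad9 was higher and Bmp7 lower in male. Of 20 tested genes of the BMP and endothelin input list, 1 rose, 1 fell and 18 did not pass, against 0.841% of all genes called higher and 0.387% called lower, and the median log2 fold change was -0.08 against -0.01 over all genes. Smad9, a BMP-activated SMAD gene, stood at 55.7, 23.9 and 35.3 CPM in male libraries and 3.38, 1.52 and 3.32 CPM in female libraries, a difference of 3.8 log2 units (SE 0.53, edgeR adjusted p = 0.0308). Bmp7, a BMP ligand gene, fell to 16.99 ± 4.85 CPM in male libraries, against 120.3 ± 15.96 CPM in female libraries (SD, n = 3 each), a difference of -2.82 log2 units (SE 0.37, edgeR adjusted p = 0.0254). Both calls were lost without male replicate 2 or 3 and without female replicate 1, 2 or 3, with adjusted p up to 0.23 for Smad9 and 0.225 for Bmp7. Ednra, the receptor of endothelin 1 that acts upstream of Dlx5 and Dlx6 in the mouse jaw, is named after its values were seen. It stood at 97.8, 96.3 and 91.1 CPM in male libraries and 299.1, 273.9 and 320.1 CPM in female libraries. The groups were well apart, yet the log2 fold change of -1.65 (SE 0.29) just missed the threshold (edgeR adjusted p = 0.0569). Acvr1, a BMP receptor gene also named after its values were seen, went the other way at 1.31 (SE 0.29, edgeR adjusted p = 0.107). Of the 20 tested genes, 4 had every male library above every female one and 5 every male library below. Over all genes these shares were 6.47% above and 13.7% in either direction.

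Genes that depend on DLX proteins or bind them in other mouse tissues included the bone factor Sp7 and the homeobox gene Msx2. Of 19 tested members of that list, 4 rose, 1 fell and 14 did not pass, against 0.841% of all genes called higher and 0.387% called lower. Of the 4 that rose, Ibsp and Hand1 passed the filter on low counts only through the male libraries, where they are high, so neither the count nor a median supports a direction. The list was drawn up with earlier results of these libraries known, and its count is not independent evidence either. Msx2, whose homeodomain protein can pair with DLX proteins, stood at 158.8, 209.6 and 260.2 CPM in male libraries and 1.87, 3.15 and 2.08 CPM in female libraries (log2 fold change 6.47, SE 0.46, edgeR adjusted p = 0.0091). Sp7, which encodes osterix and is a target of DLX5 in osteoblasts, had 184.9, 217.6 and 282.0 CPM in male libraries and 27.7, 31.9 and 27.5 CPM in female libraries (log2 fold change 2.97, SE 0.34, edgeR adjusted p = 0.018). Ibsp, a bone matrix gene, held 472 male counts against 1 female count, and Hand1, a bHLH factor gene of the mouse branchial arches and heart, held 229 against 1. Their edgeR adjusted p-values were 0.0253 and 0.0214, and their fitted sizes rest on that 1 count each. Bmp7 was the member that fell.

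Most of the list did not pass the threshold. Hand2, a factor gene tied to Dlx5 and Dlx6 in the mouse jaw, stood at 0.44 log2 units (SE 0.47), and the bone genes Runx2, Alpl and Col1a1 had 0.62, 0.32 and 0.40, none past the threshold. Star, a steroid synthesis gene that Dlx5 and Dlx6 act on in mouse Leydig cells, had -0.25 (SE 0.57). Gad1, Gad2 and Slc32a1, which make the GABA machinery downstream of Dlx1 and Dlx2 in the forebrain, were too low to test. Hand2, Runx2, Alpl, Col1a1, Star and the GABA genes are named outside the rule, after their values were seen, as well-known entries of the list. Without male replicate 1, 2 or 3 the fit called 5, 1 and 0 genes of this list, and without female replicate 1, 2 or 3 it called 1, 1 and 0. Without replicate 1 of both sexes it called 6. Over all genes the same fits called 173, 7 and 0 (male), 14, 5 and 0 (female) and 354 (replicate 1 of both sexes).

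Homeobox genes nearest to the Dlx family by sequence were mostly too low to test. Of 41 genes of the NKL class other than Dlx, 5 passed the filter on low counts. Of these, 2 were called higher, against 0.841% of all genes: Msx2, given above, and Hlx, a homeobox gene of visceral mesenchyme. Nothing is read from this count, since Hlx passed that filter only through the male libraries, where it is high. Hlx held 80 male counts against 5 female counts (log2 fold change 3.96, SE 0.66, edgeR adjusted p = 0.0495). The Hlx call was lost with RLE scaling (0.0501), with limma-voom (0.0563) and without male replicate 2 or 3 or female replicate 1, 2 or 3 (0.132 to 0.343). Msx1, a relative of Msx2 named after its values were seen, stood at 24.5, 48.8 and 56.4 CPM in male libraries and 2.61, 10.6 and 2.56 CPM in female libraries. With a log2 fold change of 3.05 (SE 0.72) it did not pass (edgeR adjusted p = 0.135). Emx2 and Lbx2, the remaining tested genes, averaged lower in male and are also named after their values were seen. Emx2 averaged 45.2 CPM in male and 109.8 CPM in female libraries, without overlap. Its log2 fold change was -1.28 (SE 0.42, edgeR adjusted p = 0.322). Lbx2 had -1.36 (SE 0.70, edgeR adjusted p = 0.761), and its libraries overlapped.

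Among all tested genes, the profile over the 6 libraries nearest to that of Dlx5 was that of Msx2. Likeness was measured as the Euclidean distance between log2 CPM values (prior count 2) centred on each gene's mean. With a sex difference this large, a small distance mainly means a similar size of that difference. The order of the male libraries need not match. Dlx5 rose over male replicates 1 to 3 (42.6, 55.9 and 83.8 CPM), whereas Slc22a3 was highest in male replicate 1 (48.8, 35.7 and 42.1 CPM) and Gata5 in male replicate 2. Msx2 lay at a distance of 0.84 and Gata5, a zinc finger transcription factor gene, at 0.851. Gata5 stood at 97.1, 213.7 and 196.8 CPM in male libraries and 1.29, 2.36 and 2.48 CPM in female libraries. After them came Ankrd63 at 1.27, Wif1, a secreted WNT inhibitor, at 1.28, and Smpd3, a sphingomyelinase gene with a role in skeletal mineralisation, at 1.499. Prr9 lay at 1.51, Ltbp2, a latent TGF-beta binding protein gene, at 1.82, and Slc22a3, an organic cation transporter gene, at 1.97. All 8 were called higher in male by edgeR, with log2 fold changes from 5.48 to 8.67, a direction that their choice by likeness to Dlx5 fixed. None of the 8 was called without male replicate 3 or without female replicate 3, with adjusted p up to 0.22.

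The choice of the members by their difference between the sexes largely fixed how near they lie to Dlx5, so their ranks are given as a description. Of 15226 genes ranked, Dlx2 was number 8, Dlx6 number 10, Dlx6os1 number 13 and Dlx3 number 31. Dlx3 lay at a distance of 2.95, farther than Dlx2 at 1.83, and its smaller difference between the sexes is part of that distance.

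**Figure D5:**
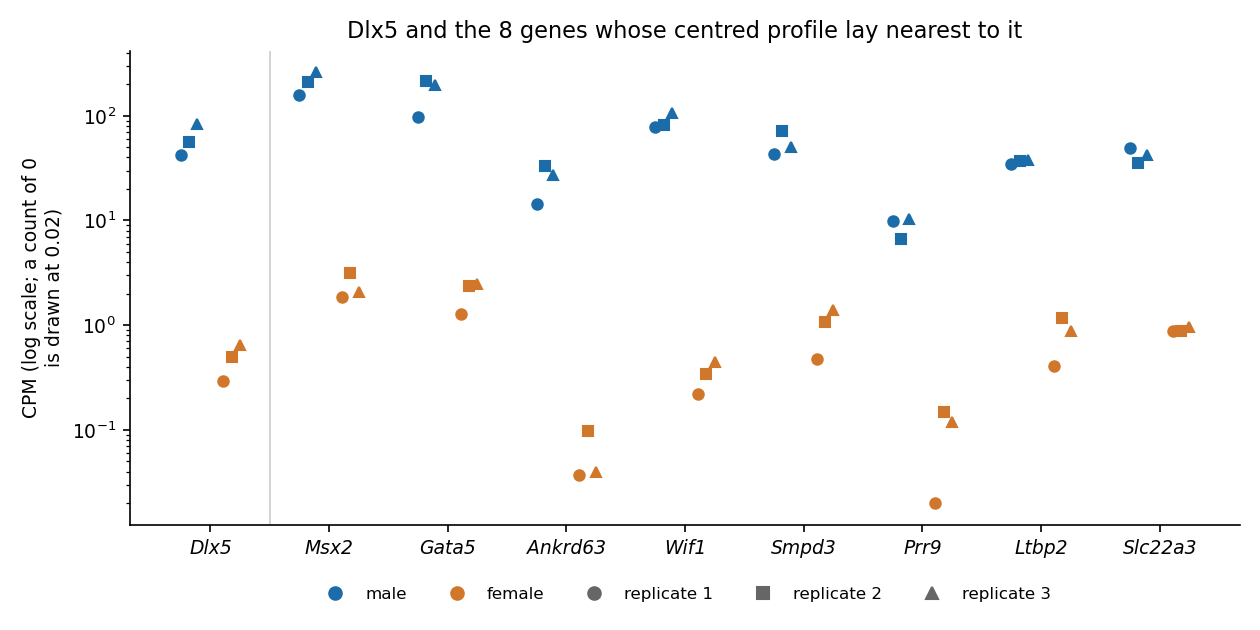
CPM (vertical axis, log scale) of Dlx5, left of the grey line, and of the 8 genes with the nearest centred profile in each library, male in blue left of female in orange. Msx2 and Gata5, the nearest, run at 97.1 to 260.2 CPM in male and 1.29 to 3.15 CPM in female libraries.

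The labelled tissue was checked against its markers: all 8 mesenchyme markers, Amhr2 and Wnt5a among them, passed the filter. Their summed level was 3811 to 4253 CPM in male and 2952 to 3798 CPM in female libraries. The largest part was Col1a2, at 1748 CPM in male and 1519 CPM in female on average. Col1a2, Pdgfra, Wnt5a and Tcf21 averaged higher in male and Amhr2, Hoxa10, Hoxa11 and Wt1 lower, and none was called. Cell types that express Dlx genes elsewhere were looked for in the same way. Of the 8 neuron markers 4 stayed under 1 CPM in every library, including Gad1 and Gad2, and Slc32a1 was at 0 in all 6. The neuron sum was 59.5 to 72.6 CPM in male and 13.5 to 16.2 CPM in female libraries, most of it Stmn2, a neuronal microtubule regulator gene. Stmn2 was called higher in male (log2 fold change 2.50, SE 0.33, edgeR adjusted p = 0.0254). The other tested neuron markers, Snap25 at 2.46, Tubb3 at 1.35 and Elavl4 at -0.24 log2 units, were not called, and their libraries overlapped between the sexes. Of the 6 surface ectoderm markers, Krt5, Trp63 and Perp stayed under 1 CPM. The others were detected: on average Krt14 stood at 21.1 CPM in male and 15.2 CPM in female libraries. Krt15 averaged 3.34 and 7.25 CPM, and Grhl3 0.695 and 1.90 CPM, in male and female. None of these was called. The surface ectoderm sums overlapped, at 11.7 to 37.5 CPM in male and 10.2 to 40.7 CPM in female libraries. The osteoblast sum was 1855 to 2554 CPM in male and 1044 to 1944 CPM in female libraries, most of it Col1a1. Of its 7 tested markers Sp7 and Ibsp were called higher in male, against 0.841% of all genes called higher. Ibsp passed the filter on low counts only through the male libraries. Bglap, the marker of mature osteoblasts, held 1 male and 4 female counts.

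Other marker sums were also higher in the male libraries, as the Dlx genes were. The Sertoli sum was 64.1 to 102.7 CPM in male and 16.7 to 19.9 CPM in female libraries. Sox9, Amh and Cst9 were called higher of 7 tested, against 0.841% of all genes called higher. Of the other tested markers, Dhh stood at 5.95, Ptgds at 0.21, Fgf9 at 0.11 and Cst8 at -2.19 log2 units, and none was called. The largest part of the sum was Sox9, at 45.2 CPM in male and 7.74 CPM in female on average, a gene that the chondrocyte list holds as well. Cst9, with 206 male and 2 female counts, passed the filter on low counts only through the male libraries. The chondrocyte sum, most of it Sox9 in male libraries, was 42.9 to 69.6 CPM in male and 12.8 to 16.8 CPM in female libraries, with Matn1 at 0 in all libraries and Acan under 1 CPM. The endothelium sum was 141.0 to 327.6 CPM in male and 47.4 to 93.4 CPM in female libraries, nearly all of it Kdr, at 207.6 CPM in male and 66.2 CPM in female on average. No endothelium marker was called, and Pecam1 stood at -0.40, Cdh5 at 0.33 and Emcn at 0.30 log2 units. The mesenchyme, Sertoli, neuron, chondrocyte and endothelium sums each separated the sexes with an exact two-sided permutation p of 0.1, the smallest that 3 against 3 libraries allow, and an adjusted p of 0.22 over the 11 lists. The other lists did not separate the sexes. Duct epithelium was 125.6 to 387.2 CPM in male and 169.9 to 567.1 CPM in female libraries. Of its 6 tested markers Epcam alone was called, at -2.41 log2 units. Krt18 stood at -0.24, Krt8 at -0.18, Pax8 at -0.04, Cdh1 at 0.19 and Wnt7a at 0.63. The fetal Leydig sum was 11.5 to 34.3 CPM in male and 16.5 to 49.3 CPM in female libraries, that of mesothelium 516.4 to 622.1 CPM in male and 588.5 to 801.0 CPM in female libraries, and that of macrophages 6.78 to 10.6 CPM in male and 5.06 to 9.74 CPM in female libraries. The part of other cells in the Dlx differences was not tested.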

How the data were processed

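Each deposited file holds the authors' counts for 1 library, unnormalized whole numbers by Ensembl gene. The submitters' processing notes name TopHat, HTSeq, DESeq and the build mm9, with no version or role. Strand setting and annotation release were not given in the sources used here. Library sizes and tests leave out 5 summary lines that name no gene. Symbols, exon lengths and neighbours came from GENCODE M21, which is of build GRCm38, and 32919 of 37991 gene identifiers had a symbol. No coordinate of the counts is given.

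Genes were kept by filterByExpr by sex (15227), and after TMM scaling the quasi-likelihood test of edgeR 4.0.16 (R 4.3.3) was run two-sided with robust dispersions and no term besides sex. Adjusted p-values are Benjamini-Hochberg values over the 15227 genes, called at 0.05. The fit was tested on simulated data, drawn independently for each library. That test left out deviations shared between male and female libraries, so it cannot judge the fit where they occur. SE was obtained by dividing the size of a log2 fold change by the root of its F statistic. CPM are counts over TMM library sizes, and profiles used log2 CPM with a prior count of 2, computed from the deposited counts. The labels call the replicates biological. Alternatives were RLE scaling, no filter, DESeq2 1.42.0, limma-voom (limma 3.58.1), a replicate block and leaving out each library; leaving out replicate 1 of both sexes was added after the data were seen.

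The members, lists and tests were chosen with earlier results of these data known. Besides the members, the text names the flanking and list genes past the threshold, or those with the smallest p, and the 8 profiles nearest to Dlx5 among genes that have a symbol, lie off X and Y and reach 1 CPM in the higher sex; exceptions are marked where they occur.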

Additional observations from a re-analysis of the deposited data

How the results depend on the processing

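Over all genes the fit called 187 genes, against 721 by DESeq2 and 354 without replicate 1 of both sexes. It called 1 flanking gene, against 3 by DESeq2 and 0 without replicate 1 of both sexes, where 5 had an unadjusted p under 0.05. It called 2 genes of the BMP and endothelin list, against 5 by DESeq2, and 2 of the NKL list, against 1 with RLE scaling and 1 with limma-voom. Leaving out each library gave 0 to 173 genes in all, 0 to 5 Dlx members, 0 flanking genes (4 to 6 with an unadjusted p under 0.05), 0 to 2 input genes, 0 to 5 target and partner genes and 0 to 2 NKL genes. With 0 genes called in all, without male replicate 3 or female replicate 3, 938 and 884 genes had an unadjusted p under 0.05. The cause was not tested.

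The replicate numbers of the labels matched libraries across the sexes for replicates 1 and 2 but not for replicate 3. Deviations from the group means correlated at 0.927 for replicate 1, 0.852 for replicate 2 and -0.07 for replicate 3. Male and female replicate 1 correlated best with each other, as did male and female replicate 2. Male replicate 3 correlated best with female replicate 2 (0.590), and female replicate 3 with male replicate 1 (0.222). The main fit held no term for these shared deviations. A replicate block called 4164 genes in all and 11 flanking genes, 5 higher and 6 lower in male. It called 10 input, 9 target and partner and 5 NKL genes, and the same number of Dlx members, 5.

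Of 204 values under an alternative for single genes other than the members, 0 changed sign, 64 lost a call and 1 gained a call. Calls of single members were not scored and are counted only by number above. Of 64 values for members and ratios, 5 moved by more than the spread between replicates: 4 were Dlx6os1 and 1 was the ratio of Dlx3 to Dlx4 per kb, 18.3 with the exon union and 12.8 with the longest transcript. Depth limits Dlx1, Dlx4 and every female value of a member, which rest on 34 counts or fewer over 3 libraries.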
